A study of Homo sapiens with 4 samples.

Results

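The genes described here are 31 genes of homologous recombination, the Fanconi anemia pathway, mismatch repair and the checkpoint kinases that act with them, followed in B-CPAP cells, a papillary thyroid carcinoma (PTC) line, after LDHA knockdown. They were taken by symbol from a list, and all 31 stood on a row of their own among the 59108 rows of the expression table. Of these, 29 reached 0.5 FPKM (fragments per kilobase of transcript, scaled to library size) as deposited in at least 2 libraries and were tested together with the 13291 rows that passed the same limit. The study compared 2 libraries of B-CPAP cells with a short hairpin RNA to LDHA (shLDHA) with 2 libraries of B-CPAP cells with one to GFP (shGFP). According to the study's methods, lentivirus carried the LDHA hairpin into the cells, which were then selected with puromycin. Whether the 2 libraries of a group stem from different cultures or clones is not stated, nor is whether both shLDHA libraries carry the same hairpin, so the spread behind each p-value is that of these 4 libraries and may be technical only. The comparison asks how the transcriptome changed when the enzyme that makes lactate from pyruvate was reduced.

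Homologous recombination repairs a broken chromosome by copying the sister chromatid. The broken ends are first resected by nucleases, and a mediator built around BRCA1, PALB2 and BRCA2 then prepares the resected strand for strand exchange. The Fanconi pathway unhooks crosslinks between DNA strands and hands them over to recombination, mismatch repair removes errors left by DNA polymerases, and the kinases ATM and ATR signal breaks and stalled forks to CHEK2 and CHEK1. Many of these genes are known to be expressed mainly in S and G2 phase. In thyroid cancer, break repair is known above all from the RET rearrangements that follow radiation.

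LDHA itself stood at 184 and 203 FPKM in the shLDHA libraries, against 1049 and 1056 FPKM in the shGFP libraries, after scaling between libraries by the trimmed mean of M values (TMM). The groups did not overlap, and the log2 fold change (log2FC, shLDHA over shGFP) of LDHA was -2.44, with a standard error (SE) of 0.08 and an adjusted p of 0.0076 from limma, where p-values were adjusted over all rows tested by Benjamini and Hochberg's method. From the steps between low FPKM, sequencing depth came to about 18900000 and 26400000 fragments for the shLDHA libraries, against about 21300000 and 22600000 for the shGFP libraries. The shLDHA pair differed more than the shGFP pair, with a median absolute log2 difference between libraries of 0.217 against 0.125. Rows without a gene name held from 0.361% to 3.53% of the FPKM, the most in shLDHA library 2. Of the marker genes of a thyroid follicular cell, PAX8 and FOXE1 passed the limit, TSHR and NKX2-1 were listed at 0 in every library, and the thyroglobulin gene TG was at or under 0.12 FPKM. Of 6 epithelial markers, the keratin genes KRT7, KRT8 and KRT18 passed the limit, with KRT7 at 40.66 FPKM or more as deposited, whereas CDH1, EPCAM and KRT19 stayed at or under 0.2 FPKM. The defining markers of leukocytes (PTPRC and CD3E) and the endothelial marker CDH5 were listed at 0. FOXE1 fell by 0.77 on the log2 scale (limma adjusted p = 0.029), and CD68, a macrophage marker also made by other cells, had a log2FC of 0.72 (limma adjusted p = 0.014). The 5 leukocyte markers summed to between 34.1 and 45.15 FPKM as deposited in the shLDHA libraries, against between 29.9 and 30.33 FPKM in the shGFP libraries, and the part of such cells in the changes was not tested.

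Most of the 29 repair genes stood lower in LDHA knockdown cells, but few passed the test. At a limma adjusted p under 0.05, 6 of them fell (ATR, CLSPN, TOPBP1, BRCA1, EXO1 and RAD54L) and 1 rose (FANCG), while 22 did not pass. Over all rows tested, 12.9% were called lower and 18.1% higher. The share of repair genes that fell (20.7%) lay somewhat above this background and the share that rose lay below it. The background of all rows takes no account of transcript length, with which the shares called varied, as given below. In 19 of the 29 genes both shLDHA libraries lay below both shGFP libraries, and in 2 (FANCG and ATM) both lay above, against 36.1% and 36.4% of all rows. The median log2FC of the 29 genes was -0.47, against 0.00 over all rows, with 24 of the 29 values below 0 against 50.2% over all rows. ATR, CLSPN and BRIP1 passed the limit through the shGFP libraries alone, so their selection required a difference, and these counts are given as a description. GENCODE on GRCh37 places ATR at chr3:142167849-142297575 (minus strand), CLSPN at chr1:36185819-36235579 (minus strand), TOPBP1 at chr3:133317019-133381224 (minus strand), EXO1 at chr1:242011269-242058450 (plus strand), BRCA1 at chr17:41196312-41322262 (minus strand), RAD54L at chr1:46712133-46744152 (plus strand) and FANCG at chr9:35073832-35080001 (minus strand). No call survived the removal of either shGFP library. The median log2FC of the 29 genes was -0.46 without shGFP library 1 and -0.43 without shGFP library 2. These fits took their spread from the wider shLDHA pair and called 0 of all genes.

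**Figure D1:**
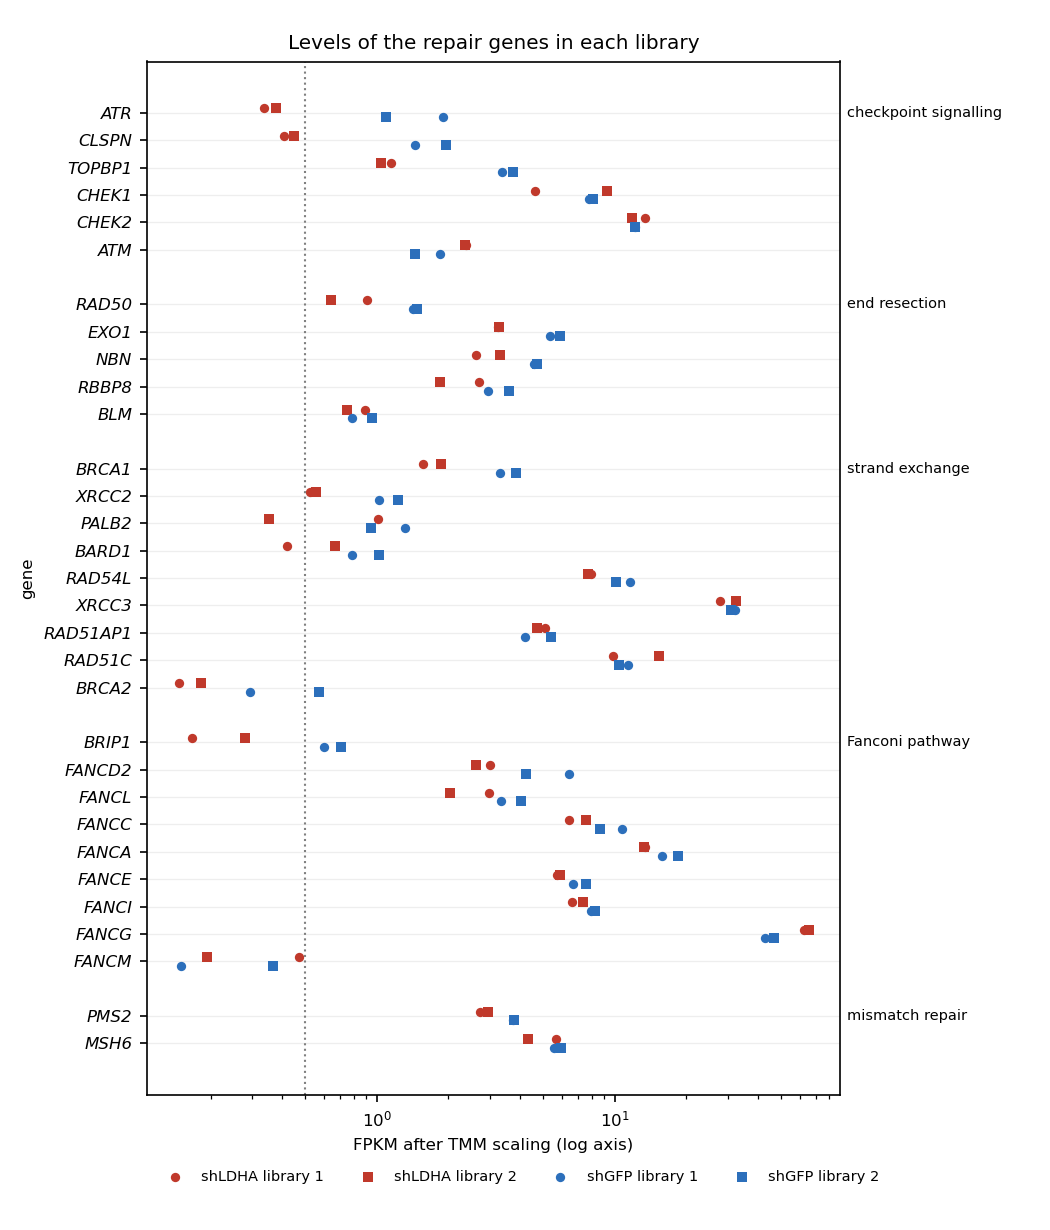
Level of each of the 31 genes in each library, as FPKM after TMM scaling on a log axis, with shLDHA libraries in red, shGFP libraries in blue, and circles and squares for libraries 1 and 2. The dotted line marks 0.5 FPKM, a limit that was applied to the values as deposited. ATR, CLSPN and TOPBP1 show the widest gap between the groups, FANCG lies to the right in both shLDHA libraries, and BRCA2 and FANCM stay under or close to the line. ATR and CLSPN passed this limit through the shGFP libraries alone.

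Of the 6 checkpoint genes, 3 fell, ATR, CLSPN and TOPBP1, and the other 3 did not pass, where 12.9% of all rows were called lower. ATR and CLSPN passed the limit of 0.5 FPKM through the shGFP libraries alone, so their selection required a difference. ATR, the kinase that responds to exposed strands at such forks, stood at 0.335 and 0.375 FPKM in the shLDHA libraries, against 1.89 and 1.10 FPKM in the shGFP libraries. CLSPN, which encodes claspin, the adaptor that presents CHEK1 to ATR, stood at 0.408 and 0.448 FPKM in the shLDHA libraries, against 1.45 and 1.96 FPKM in the shGFP libraries. TOPBP1, which encodes the activator of ATR, stood at 1.15 and 1.04 FPKM in the shLDHA libraries, against 3.37 and 3.73 FPKM in the shGFP libraries. In none of these genes did the groups overlap, although the shGFP libraries of ATR lay far apart. The log2FC values were -1.76 for ATR (SE 0.37, limma adjusted p = 0.031), -1.76 for CLSPN (SE 0.29, limma adjusted p = 0.020) and -1.61 for TOPBP1 (SE 0.19, limma adjusted p = 0.011). At the estimated depth the values of ATR rest on about 48 and 64 fragments in the shLDHA libraries, against about 359 and 219 in the shGFP libraries, so counting error alone is appreciable. The call of ATR was lost without either shLDHA library (limma adjusted p = 0.071 without library 1 and 0.065 without library 2), whereas TOPBP1 and CLSPN kept theirs.

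The other kinases of this group did not pass. CHEK1, the kinase that ATR activates, stood at 4.63 and 9.29 FPKM in the shLDHA libraries, against 7.83 and 8.15 FPKM in the shGFP libraries. The shLDHA libraries of CHEK1 thus lay on either side of the control, with a log2FC of -0.28 (SE 0.35, limma adjusted p = 0.57). Without shLDHA library 2 its log2FC was -0.78, and without shLDHA library 1 it was 0.21. The sign of CHEK1 thus depended on which shLDHA library was kept. CHEK2, which acts below ATM, had a log2FC of 0.05 (SE 0.11, limma adjusted p = 0.75). ATM, the kinase that responds to broken ends, stood at 2.37 and 2.34 FPKM in the shLDHA libraries, against 1.84 and 1.44 FPKM in the shGFP libraries. The groups of ATM did not overlap after TMM scaling but did in the values as deposited, and its log2FC of 0.50 did not pass (SE 0.21, limma adjusted p = 0.13). ATR and ATM, the paired kinases of this response, therefore had log2FC values of opposite sign, although the difference between these changes was not tested. The value of ATM depended on the processing. It was 0.18 as deposited (limma adjusted p = 0.59) and ranged from 0.0067 to 0.93 over the 16 alternatives. Of 9 further checkpoint genes tested, 1 fell (11.1%, against 12.9% of all rows), TIMELESS, which protects replication forks (log2FC -0.74).

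The promoters of the called genes with the largest absolute changes are shown, a choice made from these same values. E2F factors, whose sites lie close to the start of many S phase genes, are known regulators of such genes. The part of E2F in the changes was not tested. The windows were taken from RefSeq on GRCh38.p14 and run 5′ to 3′ from 250 bases before the transcript start to its first 10 bases. Capitals mark the words searched, on both strands: TTTCCCGC, TTTGGCGC, TTTCGCGC and TTTGCCGC for E2F, TTTGAA for the CHR element, CCAAT, CCGGAAGT for ETS factors and the palindromic consensus of NRF1, which no printed window held.
ATR (chr3:142578724-142578983, minus strand): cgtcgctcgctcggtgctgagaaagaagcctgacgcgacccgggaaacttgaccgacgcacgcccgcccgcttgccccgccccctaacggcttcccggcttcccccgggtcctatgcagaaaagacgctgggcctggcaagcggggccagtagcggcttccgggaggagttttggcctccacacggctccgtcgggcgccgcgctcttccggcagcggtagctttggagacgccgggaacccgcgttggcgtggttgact
CLSPN (chr1:35769969-35770228, minus strand): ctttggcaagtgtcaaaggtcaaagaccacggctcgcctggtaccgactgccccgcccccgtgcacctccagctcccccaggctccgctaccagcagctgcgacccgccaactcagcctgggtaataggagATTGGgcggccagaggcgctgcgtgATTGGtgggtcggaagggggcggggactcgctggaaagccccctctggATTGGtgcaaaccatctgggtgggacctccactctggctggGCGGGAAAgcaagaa
TOPBP1 (chr3:133661932-133662191, minus strand): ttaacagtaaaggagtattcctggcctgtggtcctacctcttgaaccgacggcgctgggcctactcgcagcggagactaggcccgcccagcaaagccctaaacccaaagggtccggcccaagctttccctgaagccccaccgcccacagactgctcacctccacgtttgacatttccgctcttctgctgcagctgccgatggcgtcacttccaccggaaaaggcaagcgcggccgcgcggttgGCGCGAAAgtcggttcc
BRCA1 (chr17:43125355-43125614, minus strand): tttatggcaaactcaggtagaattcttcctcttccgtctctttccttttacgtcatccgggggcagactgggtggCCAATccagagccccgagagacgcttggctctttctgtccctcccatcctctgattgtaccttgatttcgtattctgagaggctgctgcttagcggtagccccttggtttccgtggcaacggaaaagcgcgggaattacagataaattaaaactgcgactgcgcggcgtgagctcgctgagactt
On the opposite strand, CLSPN held an E2F word across its start and 3 CCAAT boxes before it, and TOPBP1 held an E2F word that ended at its start, while on the strand printed BRCA1 held 1 CCAAT box. The ATR window held none of these words. Over the full windows of 300 bases, which also hold the next 40 transcribed bases not printed here, an E2F word was found in 9 of 29 windows of the 31 genes (31%; BRCA2 and FANCM included, NBN and FANCI not), against 3.31% of 35116 windows of all genes. Of the 6 genes that fell, CLSPN, TOPBP1 and EXO1 held one. Of those that did not pass, XRCC2, FANCA, FANCC, FANCD2, MSH6 and PMS2 did, so the word was not confined to the genes called. CCAAT was found in 15 of the 29 (51.7%), against 34.6% of all windows, and in 3 of the 6 genes that fell. The CHR word was found in 3 of the 29 (10.3%), against 15.2% of all windows. The ETS word was found in 4 of the 29 (13.8%), against 4.14%, and 0 of the 6 genes that fell held a CHR or an ETS word. No window of the 29 held the NRF1 consensus (1.24% of all windows). The windows of all genes include those of non-coding genes and repeated starts of 1 gene, and a match is only a string of letters.

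Among the genes of end resection, EXO1 fell. EXO1, an exonuclease that resects broken ends and also works in mismatch repair, stood at 3.25 and 3.27 FPKM in the shLDHA libraries, against 5.34 and 5.87 FPKM in the shGFP libraries. The shLDHA libraries of EXO1 were nearly equal, and its log2FC was -0.76 (SE 0.13, limma adjusted p = 0.022). RAD50 and NBN encode partners of the nuclease MRE11 in the complex that first binds broken ends. RAD50 stood at 0.911 and 0.642 FPKM in the shLDHA libraries, against 1.41 and 1.47 FPKM in the shGFP libraries, a log2FC of -0.83 that did not pass (SE 0.28, limma adjusted p = 0.084). NBN stood at 2.61 and 3.28 FPKM in the shLDHA libraries, against 4.57 and 4.73 FPKM in the shGFP libraries, and just missed the threshold (log2FC -0.65, SE 0.17, limma adjusted p = 0.053). NBN had a log2FC of -0.81 without shLDHA library 2 (limma adjusted p = 0.041) and one of -0.49 without library 1 (limma adjusted p = 0.092), fits whose spread comes from the narrower shGFP pair. In both genes all shLDHA values lay below all shGFP values, as in 36.1% of all rows. MRE11 itself, outside the list of 31, fell by 1.32 on the log2 scale (limma adjusted p = 0.020). RBBP8, which encodes the resection factor CtIP, had a log2FC of -0.52 and BLM, the gene of the Bloom syndrome helicase, one of -0.08 with overlapping groups, and neither passed (limma adjusted p = 0.18 and 0.85).

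In strand exchange, BRCA1 and RAD54L fell. BRCA1, the scaffold that brings PALB2 and BRCA2 to broken ends, stood at 1.57 and 1.85 FPKM in the shLDHA libraries, against 3.28 and 3.84 FPKM in the shGFP libraries. Its level in shLDHA cells was 0.495 times that in shGFP cells (log2FC -1.02, SE 0.19, limma adjusted p = 0.025), a call lost without shLDHA library 1 (limma adjusted p = 0.055). RAD54L, which encodes a motor that helps the strands pair, stood at 7.95 and 7.70 FPKM in the shLDHA libraries, against 11.6 and 10.2 FPKM in the shGFP libraries. Its fall of 0.47 on the log2 scale was the smallest called among the 6 (SE 0.12, limma adjusted p = 0.047) and was lost without shLDHA library 1 or 2 (limma adjusted p = 0.073 and 0.089).

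The partners of BRCA1 did not pass. BARD1, with which BRCA1 forms a ubiquitin ligase, had a log2FC of -0.66 (SE 0.36, limma adjusted p = 0.22). Both shLDHA libraries of BARD1 lay below both shGFP libraries, as in 36.1% of all rows. PALB2, which joins BRCA1 to BRCA2, had 1.02 and 0.351 FPKM in the shLDHA libraries, against 1.31 and 0.946 FPKM in the shGFP libraries, so that its groups overlapped (log2FC -0.77, SE 0.53, limma adjusted p = 0.31). BRCA2, a central mediator of strand exchange, was not tested because it reached 0.5 FPKM in 1 library only, with deposited values of 0.14 and 0.15 FPKM in the shLDHA libraries, against 0.33 and 0.64 FPKM in the shGFP libraries.

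XRCC2, XRCC3 and RAD51C, which help strand exchange along, did not move as a group. XRCC2 stood at 0.523 and 0.557 FPKM in the shLDHA libraries, against 1.02 and 1.22 FPKM in the shGFP libraries, a log2FC of -0.93 that did not pass (SE 0.28, limma adjusted p = 0.067). XRCC3 and RAD51C were expressed at much higher levels per length, XRCC3 at 30.1 ± 3.5 FPKM in shLDHA cells and 31.5 ± 0.98 FPKM in shGFP cells (SD, n = 2 each). Their log2FC values were -0.07 (SE 0.11) and 0.17 (SE 0.24), with limma adjusted p = 0.65 and 0.61, and their groups overlapped. RAD51C read 9.81 and 15.4 FPKM in shLDHA libraries 1 and 2, and its log2FC was 0.49 without library 1 and -0.15 without library 2. RAD51AP1, which encodes a cofactor of strand exchange, had a log2FC of 0.03 (SE 0.17, limma adjusted p = 0.89). Exons of RAD50 share 76.9% of their bases with an unnamed protein-coding gene model on the same strand, which counting by strand would not separate. Exons of XRCC3 share 76.7% of their bases with KLC1 on the other strand, those of RAD54L share 19.9% with LRRC41, those of FANCA 19.6% with ZNF276 and those of MSH6 22.7% with FBXO11. The sources used here do not state that counting used the strand, so reads of these pairs may not be told apart.

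**Figure D2:**
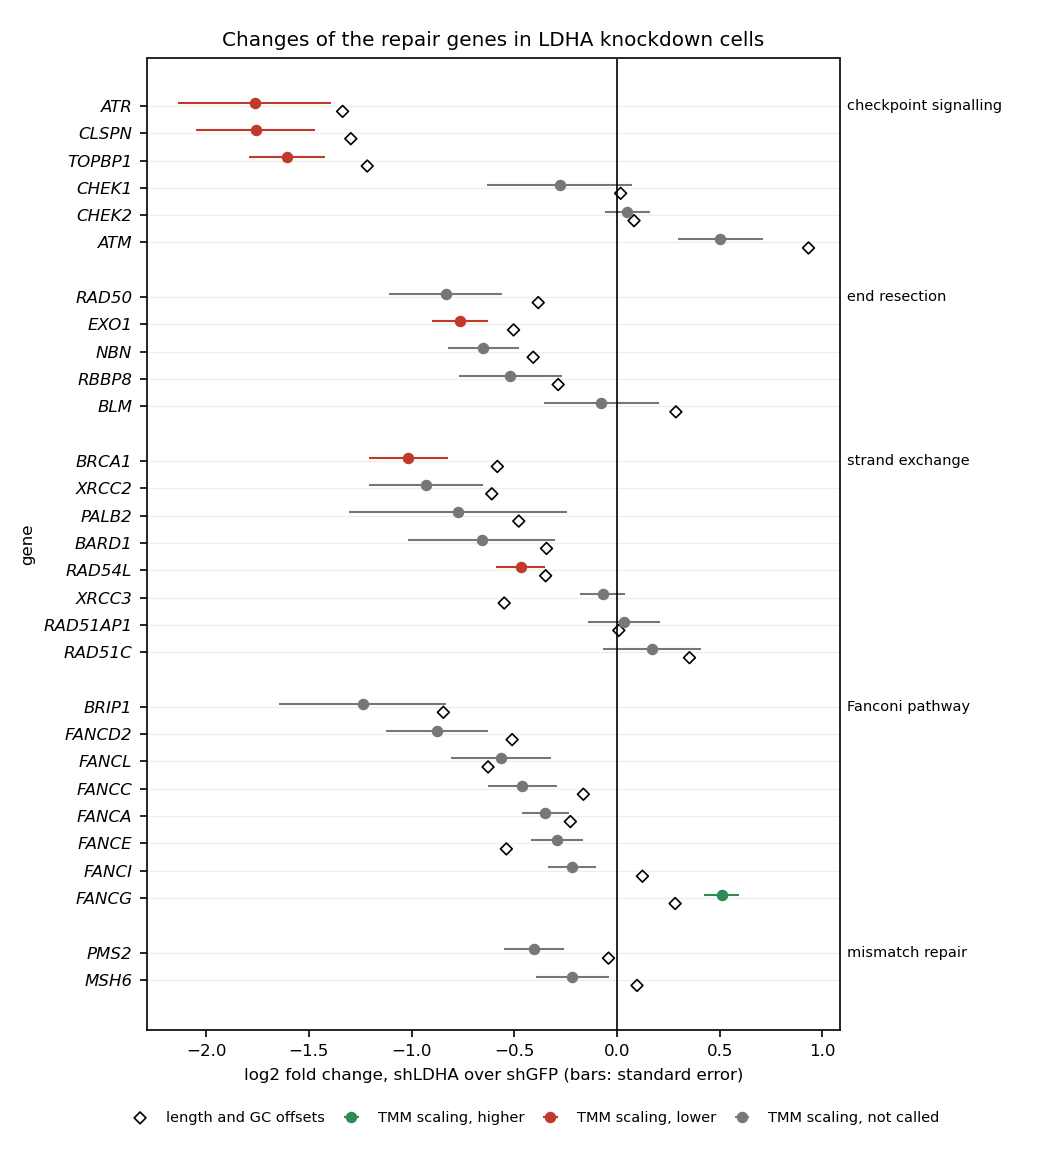
Log2 fold change of each of the 29 tested genes, shLDHA over shGFP, with its SE, coloured by the call at a limma adjusted p under 0.05. Open diamonds give the value after offsets that remove trends with transcript length and GC content, which lie nearer to 0 than the main values for all 6 genes that fell and for FANCG, and farther above 0 for ATM.

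Of the 8 Fanconi genes tested, 1 rose and 7 did not pass, where 18.1% of all rows were called higher and 12.9% lower. FANCG, a subunit of the core complex that carries the ubiquitin ligase of the pathway, was the only one of the 29 genes that rose, with 62.4 and 65.3 FPKM in the shLDHA libraries, against 42.8 and 46.8 FPKM in the shGFP libraries. It was also the most highly expressed of them per length, and its log2FC was 0.51 (SE 0.08, limma adjusted p = 0.020). In the unscaled table FANCG had a log2FC of 0.17 (limma adjusted p = 0.33), and after every library was set to the same total it had one of -0.010 (limma adjusted p = 0.96), so its rise holds only relative to the general shift described below. The other core subunits FANCA, FANCC, FANCE and FANCL, the last being the ligase itself, had log2FC values of -0.35, -0.46, -0.29 and -0.56 and did not pass (limma adjusted p from 0.081 to 0.145). In each of them both shLDHA libraries lay below both shGFP libraries, as in 36.1% of all rows. FANCM, the translocase that anchors the core complex, was not tested, with deposited values of 0.45 and 0.16 FPKM in the shLDHA libraries, against 0.17 and 0.41 FPKM in the shGFP libraries.

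None of the other Fanconi genes on the list of 31 passed either. FANCD2 and FANCI encode the clamp that the core complex ubiquitinates. FANCD2 stood at 2.98 and 2.60 FPKM in the shLDHA libraries, against 6.41 and 4.22 FPKM in the shGFP libraries, a log2FC of -0.88 with an SE of 0.25 (limma adjusted p = 0.060). FANCI had a log2FC of -0.22 (SE 0.12, limma adjusted p = 0.21). BRIP1, a helicase bound to BRCA1, stood at 0.168 and 0.278 FPKM in the shLDHA libraries, against 0.601 and 0.705 FPKM in the shGFP libraries. Its log2FC of -1.24 had an SE of 0.41 and did not pass (limma adjusted p = 0.082). Of the 8 Fanconi genes tested, limma thus called 0 lower, against 12.9% of all rows. At an unadjusted p under 0.05, 4 were lower (FANCA, FANCC, FANCD2 and BRIP1), against 2850 of all 13291 rows.

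Of mismatch repair, MSH6, which recognises mismatched bases, and PMS2, which nicks the strand to be removed, were on the list. MSH6 had a log2FC of -0.22 with overlapping groups (SE 0.18, limma adjusted p = 0.38). PMS2 stood at 2.71 and 2.93 FPKM in the shLDHA libraries, against 3.73 and 3.78 FPKM in the shGFP libraries, a log2FC of -0.40 (SE 0.15, limma adjusted p = 0.10). PMS2 has near-identical copies in the genome, and reads may have been split between them. Of these, PMS2P4 fell by 0.92 on the log2 scale (limma adjusted p = 0.045), while PMS2P1, PMS2P3 and PMS2CL had log2FC values of 0.14, -0.49 and -0.23 and did not pass. The copies CHEK2P2 and FANCD2P2 were listed at 0 in every library.

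Other repair genes, 118 on a further list and 117 of them tested, moved in both directions, as did all rows. Of the 117, 22 were lower (18.8%) and 18 higher, against 12.9% and 18.1% of all rows. In recombination, 10 of 32 fell and 2 rose. Those that fell include EME1, a subunit of a nuclease that cuts joint molecules (-0.77 on the log2 scale), and MRE11 (-1.32), and those that rose were RMI2, which works with BLM (0.96), and MUS81, the partner of EME1 (0.49). Around BRCA1, BRCC3, a deubiquitinase, fell (-1.43), whereas ABRAXAS1 (0.67), BABAM1 (0.30) and BABAM2 (0.57), which belong to the same complex, rose. Of 14 further Fanconi genes, FANCB was called lower (-1.94), but it passed the limit through the shGFP libraries alone and rests on about 4 and 10 fragments in the shLDHA libraries, so its fold is poorly set, and ERCC1, a subunit of an incision nuclease (0.98), MAD2L2 (0.89), FAAP20 (0.98) and FAAP100 (0.62) rose.

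Outside these pathways, 3 of 11 genes of end joining fell, among them PRKDC, the gene of the DNA-dependent protein kinase (-0.82), NHEJ1 (-0.68) and XRCC5, a subunit of Ku (-0.37), and 3 rose, the polymerase genes POLL (1.03) and POLM (0.90) and PAXX (0.55). Of 17 genes of base excision repair, UNG, the uracil glycosylase (-0.64), and TDG (-0.76) fell and 4 rose, with the glycosylase genes MPG (1.20), NTHL1 (0.78) and SMUG1 (0.63) at the lowest p. Of 18 genes of nucleotide excision repair, 4 fell, with GTF2H3 (-1.19), ERCC3 (-0.78) and GTF2H1 (-0.56) at the lowest p, and 2 rose, among them CETN2 (0.54). These counts stand beside 12.9% of all rows called lower and 18.1% called higher. After length and GC offsets the log2FC values of PAXX, NTHL1, FAAP20 and BABAM1 were -0.47, -0.13, -0.085 and -0.12.

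Many of the 31 genes are expressed beside the genes of S phase. Of 39 such genes, 24 fell (61.5%) and 3 rose, against 12.9% and 18.1% of all rows, with a median log2FC of -0.55. CDC6, a licensing factor of replication origins, had a log2FC of -1.26, FEN1, a nuclease of lagging strand synthesis, one of -0.83 and CDC45, a part of the replicative helicase, one of -1.02. The thymidine kinase gene TK1 (0.63), the licensing factor gene CDT1 (0.65) and the polymerase gene POLD1 (0.45) rose after TMM scaling, and after length and GC offsets the log2FC values of TK1 and POLD1 were -0.033 and -0.012. Fewer cells in S phase and less of each RNA per cell cannot be told apart in bulk RNA, and the part of S phase in the changes of the repair genes was not tested.

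**Figure D3:**
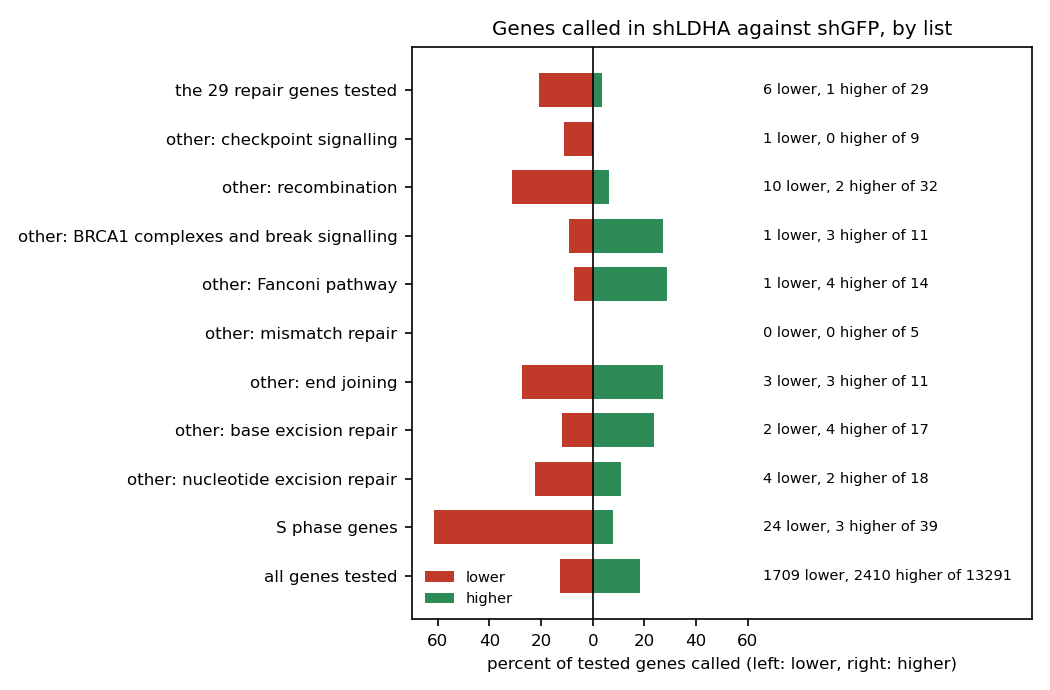
Percent of the tested genes of each list called lower (red, to the left) or higher (green, to the right) at a limma adjusted p under 0.05, with the counts at the right. The S phase genes hold the largest share of lower calls (24 of 39), and the 29 repair genes hold 6 lower and 1 higher. The genes of other repair pathways hold calls in both directions, as do all genes tested (12.9% lower and 18.1% higher).

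The changes of the repair genes moved with transcript length, as did those of all genes. Over 11919 rows with a known length, the median log2FC was 0.55 in the shortest of 10 equal bins of transcript length and -0.43 in the longest (Spearman's rho -0.41 across genes, which share the same libraries and are not replicates). The repair genes have long transcripts, with a median of 4622 bases against 3120 over all rows with a length, and 16 of the 29 lie in the 3 longest bins. In these bins, by rising length, 18.5%, 19.8% and 20.4% of rows were called lower and 8.72%, 5.79% and 4.61% higher. Of the 29 genes, 24 lay below the median of their own bin, where the bins take no account of GC content. ATR, CLSPN and TOPBP1, with transcripts of 8158, 8512 and 5761 bases, lay at -1.76, -1.76 and -1.61 in bins with medians of -0.43, -0.43 and -0.31, while ATM, the longest at 12915 bases, lay at 0.50. The selection of ATR and CLSPN required a difference, because they passed the limit on low FPKM through the shGFP libraries alone. After offsets that remove the trend with length, 5 of the 29 genes fell (EXO1, RAD54L, ATR, CLSPN and TOPBP1) and 2 rose (FANCG and ATM), against 13.0% and 15.5% of all rows. BRCA1 then missed the threshold (log2FC -0.69, limma adjusted p = 0.059). After offsets for length and GC content together, 4 of the 29 genes were lower and 1 higher, against 10.1% and 10.5% of all rows: CLSPN (-1.30, limma adjusted p = 0.041) and TOPBP1 (-1.22, limma adjusted p = 0.022) were called lower and ATM higher (0.93, limma adjusted p = 0.038). In the same fit XRCC3 (-0.55, limma adjusted p = 0.044) and FANCE (-0.54, limma adjusted p = 0.049) were called lower, ATR (-1.34, limma adjusted p = 0.058), EXO1 (-0.50, limma adjusted p = 0.064), BRCA1 (-0.58, limma adjusted p = 0.096) and RAD54L (-0.35, limma adjusted p = 0.097) were not, and FANCG had a limma adjusted p of 0.081. Of the 29 log2FC values, 25 were below 0 after length offsets, against 6223 of 11919 rows. After length and GC offsets 20 of the 29 were below 0, where the median of all rows was -0.030. What length and GC content contribute to single genes was not tested beyond these fits.

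**Figure D4:**
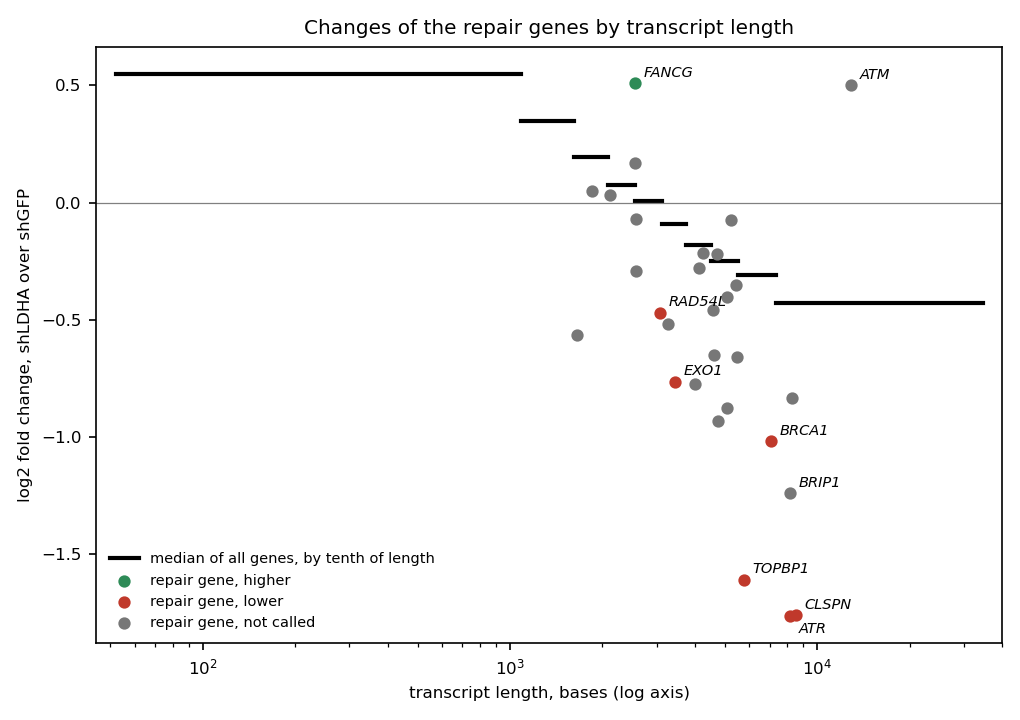
Log2 fold change, shLDHA over shGFP, against transcript length on a log axis. Black bars give the median of all genes in each of 10 length bins, from 0.55 in the shortest to -0.43 in the longest, and points give the 29 repair genes by call. CLSPN, ATR and TOPBP1 lie far below the bars at their length, and ATM and FANCG lie above theirs. CLSPN and ATR passed the limit on low FPKM through the shGFP libraries alone.

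Scaling between libraries set how many genes were called. As deposited, the median of all rows was lower in the shLDHA libraries, with a log2FC of -0.33, and after TMM scaling it was 0.00, which makes the changes above relative to this shift. In the deposited values 14 of the 29 genes were lower (NBN, EXO1, BRCA1, XRCC2, RAD54L, FANCA, FANCC, FANCE, FANCD2, FANCI, ATR, CLSPN, TOPBP1 and PMS2) against 23.4% of all rows, and limma called 0 higher, with 0 at an unadjusted p under 0.05. ATR, CLSPN, TOPBP1, BRCA1 and EXO1 were called lower under each scaling tried (TMM, upper quartile, equal total and none), as was RAD54L.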

How the data were processed

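RNA-seq of B-CPAP cells was analysed in 2 shLDHA and 2 shGFP libraries. The authors deposited 1 table, described as raw counts, whose values have 2 decimals and were read as FPKM. The study's methods name Trim Galore, STAR on hg19, HTSeq with GENCODE and TMM with edgeR, and HISAT2 and hg38 stand beside Trim Galore in the submitters' processing notes. Which tool computed FPKM is not given here. Rows without a name (224) or named as a date (27) were left out, and 13291 rows reached 0.5 FPKM in 2 or more libraries. Unweighted TMM factors (trimming 30% of M and 5% of A per tail) were applied, and log2(FPKM + 0.1), a scale that understates changes of low genes, was fitted with limma 3.58.1 in R 4.3.3, a variance trend, 2 residual degrees of freedom and Benjamini-Hochberg adjustment over all rows. An exact permutation test of 2 against 2 libraries cannot give a p under 0.333 and was not used. The 31 members and the gene lists were chosen with earlier results of these data known, so no count over them is independent support. All members were named, and of the other lists up to 3 genes a direction and subgroup with the lowest p. Some genes the rule names are not reported here. Further genes named (FAAP100, CD68 and other markers) complete a count or a marker list and were named after their values were seen. Lengths, GC content, exon overlaps and coordinates come from GENCODE version 44 on GRCh37 by symbol and the canonical transcript. Depth was estimated from single-exon genes, for which 78.6% to 85.0% of low values came within 0.15 of an integer number of fragments at a fragment length of 280 bases, so it is approximate. Alternatives were other scalings, pseudocounts and limits, no variance trend, length and GC offsets (splines with 5 degrees of freedom), a replicate block and leaving out each library. The fit was tested on simulated data.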

Additional observations from a re-analysis of the deposited data

How the results depend on the processing

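LDHA kept its direction in each of the 16 alternatives and lost its call without shGFP library 1 or 2 (limma adjusted p = 0.145 and 0.13, log2FCs from -2.52 to -2.38 over the fits without 1 library). Leaving out each library in turn, 0 to 6 of the 29 repair genes were lower and 0 to 2 higher, with a median log2FC from -0.46 to -0.41. In the same fits 0 to 20 other repair genes were lower and 0 to 21 higher, 0 to 23 S phase genes were lower, and 0 to 1788 of all genes were lower and 0 to 2729 higher. As deposited, 14 repair genes were lower and 0 higher (median -0.81), 38 other repair genes were lower and 5 higher, and 3114 of all genes were lower and 904 higher. With an equal total, 18 repair genes were lower and 0 higher (median -0.98), 50 other repair genes were lower and 1 higher, and 4518 of all genes were lower and 608 higher, against 1709 and 2410 after TMM scaling, so that the scaling sets the split. The median was -0.59 with upper quartile scaling and -0.36 with a pseudocount of 1. With no limit on low FPKM, 3 repair genes, 9 other repair genes and 1000 of all genes were lower, where many more rows were tested. With no variance trend 0 repair genes were higher. After length offsets 2 repair genes were higher (median -0.42) and 10 other repair genes were higher, and after length and GC offsets the median was -0.35 and 1257 of all genes were higher. A replicate block on the numbers of the titles, which nothing in the labels says mark shared cultures (correlation of same-numbered deviations 0.118), gave 6 repair genes lower and 1 higher, with RAD54L lost (limma adjusted p = 0.067) and FANCD2 gained (limma adjusted p = 0.044), 1233 of all genes lower and 2209 higher. The block with length and GC offsets gave 1 repair gene lower (TOPBP1) and 0 higher (median -0.35), 9 other repair genes lower and 7 higher, and 838 of all genes lower and 1021 higher. Among genes called, signs turned with an equal total for FANCG (-0.010), MUS81 (-0.032), POLD1 (-0.071) and BABAM1 (-0.22), as deposited for BABAM1 (-0.044), after length offsets for BABAM1 (-0.078), and after length and GC offsets, with or without the block, for BABAM1 (-0.12), FAAP20 (-0.085), PAXX (-0.47), NTHL1 (-0.13), TK1 (-0.033) and POLD1 (-0.012). Of the genes not called, CHEK1, CHEK2, RAD51C, RAD51AP1, XRCC3, BLM, FANCI and MSH6 also changed sign under at least 1 alternative, none of them called where its sign changed. The cause was not tested. Depth limits ATR, CLSPN, BRIP1, XRCC2, BARD1, PALB2, BLM and FANCL, whose shLDHA values rest on fewer than 100 fragments in each library.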
